A study of Mus musculus with 5 samples.

Results

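The genes described here encode, with 1 exception (Mrps36), proteins of the mitochondrial ribosome. They are the protein-coding genes whose symbol is Mrpl or Mrps followed by a number, 78 of the 49315 genes counted in each library. Poly-A RNA had been sequenced from whole hearts, with mixed cell type on the label, in 3 libraries from mice fed a high-fat, high-sucrose (HFHS) diet and 2 libraries from mice fed standard chow, for 18 weeks each. All the mice had received 1 intravenous dose of iron dextran, and their hearts were perfused with buffered saline and taken 48 hours later. No library without iron was compared, so the comparison is of diet among mice that all received iron. The series concerns intravenous iron and ferroptosis in the heart under cardiometabolic disease. No source used here gives strain, sex or age. The libraries are numbered per group with no word on whether each is a separate animal, so p-values measure only the spread between them.

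The mitochondrial ribosome stands in the mitochondrial matrix and makes the few respiratory chain proteins that mitochondrial DNA encodes. Its RNAs come from mitochondrial DNA, while all its proteins are encoded in the nucleus, translated in the cytosol and imported. It has a large subunit, which joins amino acids and holds the exit tunnel, and a small subunit, which reads the messenger RNA. Some of the proteins have counterparts in the bacterial ribosome, and others were added in mitochondria. The heart depends on these ribosomes for its respiratory chain, and inherited defects of several of their proteins cause childhood cardiomyopathy in people.

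Transcripts of most mitoribosomal protein genes were lower in HFHS hearts. Of the 78 genes, all of which passed the filter on low counts, 51 fell, none rose and 27 did not pass (edgeR's quasi-likelihood test, Benjamini-Hochberg adjusted p of 0.05 over 14221 genes). Among all tested genes 18.7% fell and 19.4% rose. No gene of the family had a positive log2 fold change at an unadjusted p of 0.05, and DESeq2 likewise called 0 of them higher. The median log2 fold change (HFHS minus chow) was -0.39 over the 78 genes and -0.01 over all tested genes. Fold changes of the 78 ran from -1.02 for Mrpl33 to 0.17 for Mrpl19, with 74 below 0. Only 22 of the genes that fell did so by 1.5 fold or more, and that count is not given here for all tested genes.

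**Figure D1:**
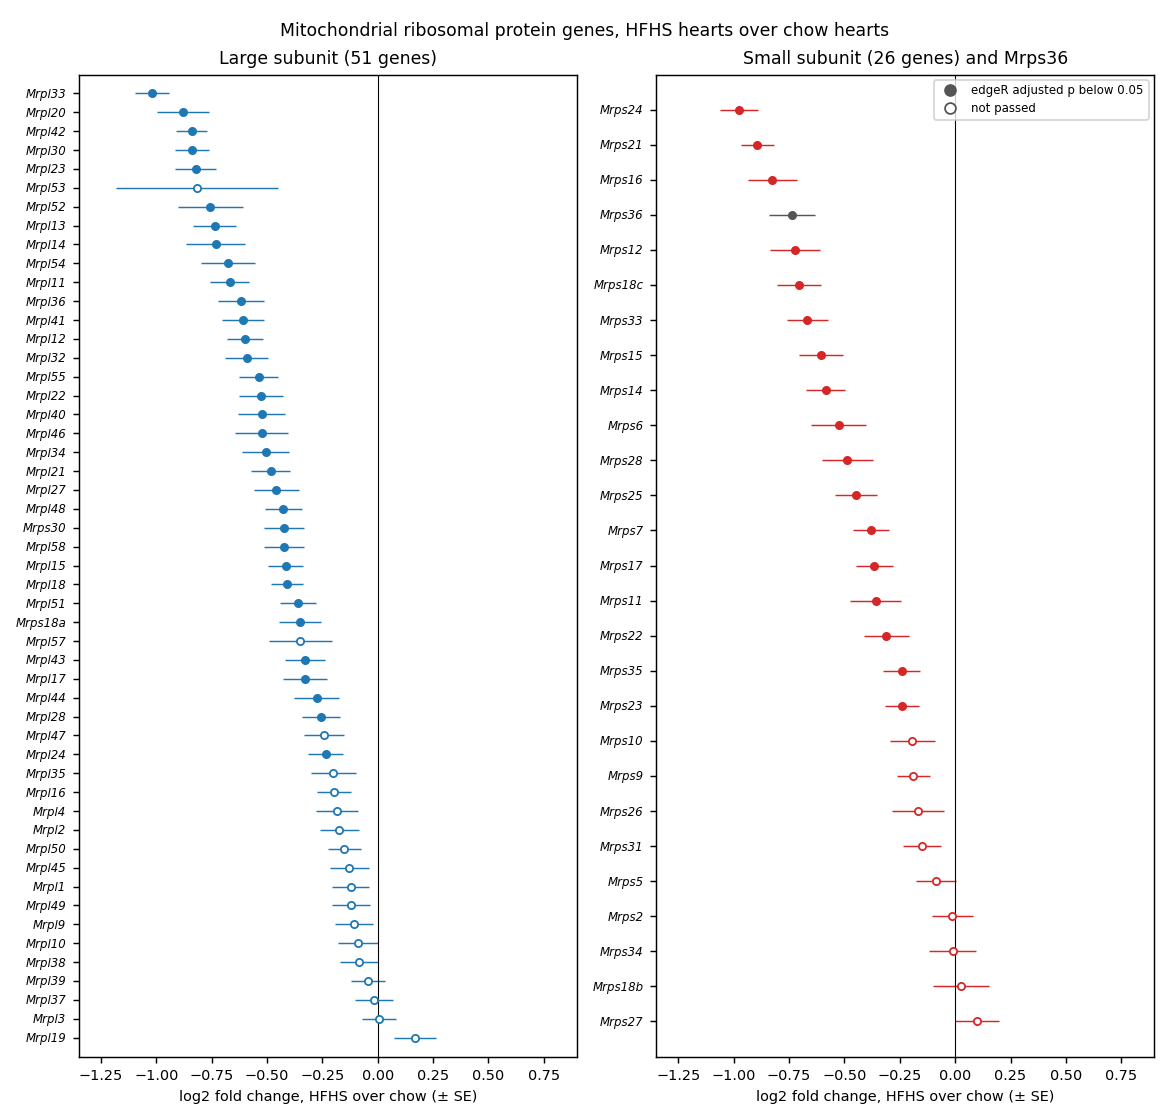
Log2 fold change of each of the 78 mitoribosomal protein genes, HFHS over chow (x axis, bars are the standard error of the fit), ordered by value within the large subunit (51 genes, left) and the small subunit with Mrps36 (right); filled points passed an adjusted p of 0.05. Filled points lie at negative values in both panels, from Mrpl33 at -1.02 and Mrps24 at -0.98 upwards, and the 4 positive values are open points.

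The family took a smaller part of the counts in every HFHS library. It held 0.287%, 0.281% and 0.304% of all counts in HFHS hearts 1, 2 and 3, against 0.415% and 0.416% in chow hearts 1 and 2. Summed over the family, the level was 2969, 2898 and 3097 CPM (counts scaled to a common library total, with edgeR's TMM factors) in HFHS hearts and 3989 and 4001 CPM in chow hearts. Without Mrpl42, which has the highest count of the family, the sums were 2776, 2713 and 2904 CPM against 3663 and 3646 CPM. The groups do not overlap in any of these sums. Gene by gene, all HFHS libraries were below both chow libraries for 63 of the 78 genes and above both for 1, Mrpl19, while the same held for 29.4% and 29.2% of all tested genes. The groups overlapped for 14 genes, among them Mrpl3, Mrpl37, Mrpl39, Mrps2 and Mrps34.

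**Figure D2:**
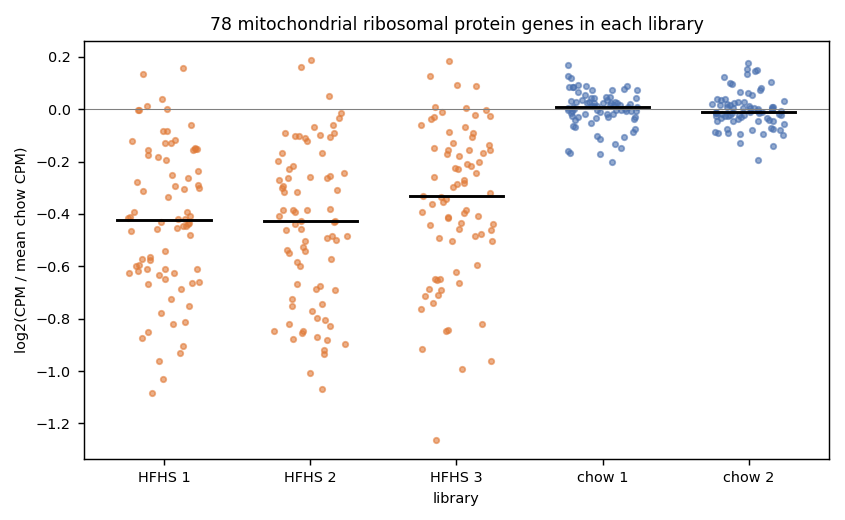
Level of each of the 78 genes in each library as log2 of its CPM over the mean chow CPM (y axis), with the median as a black line. The 3 HFHS libraries spread downwards from about the chow level, and their medians lie below those of the chow libraries; the scatter of the chow libraries around 0 is small partly because their own mean is the base.

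The genes that fell with the smallest p came from both subunits. Mrpl33 (ENSMUSG00000106918, chromosome 5 from 31596935 to 31664384, GRCm38) encodes a small large-subunit protein with a bacterial counterpart. It was at 40.9, 39.8 and 42.9 CPM in HFHS hearts, against 83.3 and 83.7 CPM in chow hearts. HFHS values were thus close together and far below chow, with a log2 fold change of -1.02 (SE 0.077), 2.03-fold lower, and an edgeR adjusted p of 3.44e-07. Its exons overlap those of Gm43809. Mrps24 (ENSMUSG00000020477, chromosome 11 from 5703983 to 5715680), whose product lies where messenger RNA enters the small subunit, was at 24.5, 23.3 and 23.5 CPM against 46.7 and 46.9 CPM. It was 1.97-fold lower (log2 fold change -0.98, SE 0.086, edgeR adjusted p 1.36e-06). Some of its exons overlap exons of Urgcp, so reads may be shared. Mrps21 (ENSMUSG00000054312, chromosome 3 from 95862634 to 95871519), a small-subunit protein with a bacterial counterpart, was at 53.1, 50.7 and 50.8 CPM in HFHS hearts, against 94.5 and 97.0 CPM in chow hearts, 1.86-fold lower with an edgeR adjusted p of 7.54e-07. No exon of another gene overlaps it.

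Mrpl42 (ENSMUSG00000062981, chromosome 10 from 95480806 to 95501927) encodes a large-subunit protein found in mitochondria and not in bacteria. Its level was 192.7, 185.4 and 192.7 CPM in HFHS hearts, against 325.4 and 355.7 CPM in chow hearts, 1.79-fold lower (SE of the log2 fold change 0.070, edgeR adjusted p 8.27e-07). Mrpl30 (ENSMUSG00000026087, chromosome 1 from 37890477 to 37898535), of bacterial origin, was at 89.3, 92.6 and 98.6 CPM against 175.2 and 159.3 CPM, also 1.79-fold lower, with an edgeR adjusted p of 1.91e-06. Both are large-subunit genes whose groups lie well apart. Mrpl23, whose product sits at the mouth of the exit tunnel, was at 19.4, 18.5 and 18.5 CPM in HFHS hearts, against 33.7 and 32.9 CPM in chow hearts, 1.77-fold lower. Mrpl11 and Mrpl12 encode proteins of the stalk that recruits translation factors. Mrpl11 was at 29.1, 26.6 and 28.4 CPM against 45.5 and 43.7 CPM, and Mrpl12 at 90.3, 83.4 and 99.1 CPM against 138.6 and 137.2 CPM. They fell 1.59-fold and 1.52-fold, with edgeR adjusted p of 4.17e-05 and 5.72e-05. Not every stalk gene fell: Mrpl10 overlapped between the groups and did not pass (log2 fold change -0.09, edgeR adjusted p 0.463). Mrpl13 fell 1.67-fold, to 43.3, 36.1 and 35.7 CPM in HFHS hearts, against 60.7 and 67.3 CPM in chow hearts. It shares exon sequence with the overlapping gene Mtbp.

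Promoters of this family are known for binding sites of NRF1, ETS factors such as GABP, and YY1. RefSeq start-site windows (GRCm38.p6, 250 bases before to 50 after the start) were found for 69 of the 78 genes, 75 windows in all, and both strands were searched. The letters GCGCA and GCGC with any base between them (NRF1) stood in 17.3% of the family's windows, against 9.29% of the 13553 windows of tested genes and 4.6% of all 32851 windows. The letters CCGGAAG (ETS) stood in 34.7% of the family's windows, against 16.3% of windows of tested genes and 8.86% of all windows. The letters AAGATGGC (YY1) stood in 16%, 4.13% and 2.75%. Patterns of other factors were searched as well and were not more frequent to this degree. Those of SP and NFY stood in 52% and 40% of the family's windows, against 60.6% and 37.2% of windows of tested genes. The E-box stood in 9.33% against 9.61%, and the ERR pattern in 0% against 0.28%. A core promoter box stood in 6.67% against 7.53%. None of the NRF1, ETS and YY1 patterns contains another, and matches below are to these 3. Among genes with a match in the stretch shown, the 4 with the smallest p that fell and the 2 furthest from passing are given from 120 bases before to 30 after the start, so that genes that fell can be set beside genes that did not pass. Capitals mark the matches, on either strand.
Mrpl33: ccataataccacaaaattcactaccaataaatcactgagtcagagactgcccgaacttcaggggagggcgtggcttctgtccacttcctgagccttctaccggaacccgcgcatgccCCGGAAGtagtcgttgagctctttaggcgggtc
Mrps21: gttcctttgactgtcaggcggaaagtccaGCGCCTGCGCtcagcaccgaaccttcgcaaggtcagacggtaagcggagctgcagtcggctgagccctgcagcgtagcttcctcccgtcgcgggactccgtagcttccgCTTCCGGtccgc
Mrpl30: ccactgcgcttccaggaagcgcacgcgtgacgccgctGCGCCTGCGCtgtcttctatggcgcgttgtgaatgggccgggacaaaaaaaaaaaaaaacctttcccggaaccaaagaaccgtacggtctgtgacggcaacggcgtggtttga
Mrps16: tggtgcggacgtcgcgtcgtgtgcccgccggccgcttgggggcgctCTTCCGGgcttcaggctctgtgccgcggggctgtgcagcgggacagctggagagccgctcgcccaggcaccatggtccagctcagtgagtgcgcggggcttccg
Mrpl3: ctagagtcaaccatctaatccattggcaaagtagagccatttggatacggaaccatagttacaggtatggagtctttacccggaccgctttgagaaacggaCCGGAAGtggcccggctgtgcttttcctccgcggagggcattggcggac
Mrps27: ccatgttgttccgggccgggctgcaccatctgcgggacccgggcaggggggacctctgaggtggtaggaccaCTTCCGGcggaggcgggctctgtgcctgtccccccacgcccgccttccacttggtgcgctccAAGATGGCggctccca
These stretches are Mrpl33 at chr5:31613831-31613980 on the plus strand, Mrps21 at chr3:95871485-95871634 on the minus strand, Mrpl30 at chr1:37890357-37890506 on the plus strand, Mrps16 at chr14:20393461-20393610 on the minus strand, Mrpl3 at chr9:105053148-105053297 on the plus strand and Mrps27 at chr13:99344666-99344815 on the plus strand, all in GRCm38.p6. Mrps21 holds an NRF1 and an ETS match, Mrpl30 an NRF1 match, and Mrpl33 and Mrps16 an ETS match. Mrpl3 and Mrps27, which did not pass, hold an ETS match each, and Mrps27 a YY1 match as well.

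Genes fell both with and without such a match, and the difference was not tested. Of the 43 genes with at least 1 of the 3 patterns in a window, 30 fell, with a median log2 fold change of -0.41. Of the 26 genes with none, 16 fell, with a median of -0.39. For ETS alone, 20 of 26 genes with a match and 26 of 43 without one fell, with medians of -0.42 and -0.36. For NRF1, 7 of 13 genes with a match and 39 of 56 without one fell, with medians of -0.33 and -0.42. A match is a description of letters and not of a bound site.

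Genes of both subunits fell. In the large subunit 33 of 51 genes fell, with a median log2 fold change of -0.42, and in the small subunit 17 of 26 fell, with a median of -0.36. The difference between the subunits was not tested. By origin, 32 of 46 genes with a bacterial counterpart and 18 of 31 genes added in mitochondria fell, with medians of -0.47 and -0.33. The lowest share was in the small-subunit genes added in mitochondria, of which 5 of 10 fell with a median of -0.20, and the highest in small-subunit genes of bacterial origin, of which 12 of 16 fell with a median of -0.51. These added genes also have longer coding transcripts, 1282 against 1007 bases in the median.

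Several genes stand apart from their symbol. Mrps18a, Mrps18b and Mrps18c are paralogs of 1 bacterial gene; only Mrps18c, which stands in its place, is counted above as having a bacterial counterpart, and the other two as added. Mrps18c, of the small subunit, was at 25.9, 23.5 and 25.9 CPM in HFHS hearts, against 44.5 and 37.4 CPM in chow hearts, 1.63-fold lower with an edgeR adjusted p of 8.39e-05. Mrps18a, whose product sits in the large subunit, was at 37.3, 35.4 and 43.7 CPM against 48.5 and 50.4 CPM, 1.28-fold lower with an edgeR adjusted p of 0.0103. That call was lost without HFHS heart 1 (adjusted p 0.0507) and without HFHS heart 2 (0.0629), and with coding transcript length offsets, which are described with the length trend. Mrps18b, at 14.7, 15.9 and 16.3 CPM in HFHS hearts, against 17.2 and 13.4 CPM in chow hearts, overlapped between the groups and did not pass (adjusted p 0.890). Whether the paralogs differ was not tested. Mrps30, also a large-subunit protein despite its name, was at 23.8, 23 and 23 CPM against 32 and 30.4 CPM, 1.34-fold lower with an edgeR adjusted p of 0.00221; the call was lost with exon length offsets. Mrps36 encodes a part of the alpha-ketoglutarate dehydrogenase complex and not of the ribosome; it was at 35.9, 30.9 and 33.4 CPM against 49.4 and 62.0 CPM, 1.67-fold lower with an edgeR adjusted p of 8.72e-05.

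Genes whose human counterparts are linked to mitochondrial disease did not all move. Mrpl3, a core protein of the large subunit linked to cardiomyopathy, was at 95.6, 88.5 and 101.0 CPM in HFHS hearts, against 94.5 and 95.0 CPM in chow hearts. The groups overlap and its log2 fold change was 0.01 (SE 0.078, edgeR adjusted p 0.967). Mrps34, linked to Leigh syndrome, was at 20.05, 19.95 and 23.2 CPM against 20.8 and 21.7 CPM (adjusted p 0.947). Its exons overlap those of Mapk8ip3 and Nme3. Mrpl44, linked to cardiomyopathy, was at 35.4, 32.3 and 36.7 CPM in HFHS hearts, against 38.1 and 46.3 CPM in chow hearts, 1.21-fold lower with an edgeR adjusted p of 0.0440. The chow libraries decided that value, with a log2 fold change of -0.41 without chow heart 1 and -0.13 (adjusted p 0.415) without chow heart 2. The call was also lost without HFHS heart 1, without HFHS heart 2, with DESeq2 and with both offsets. Mrps22, linked to infantile disease with cardiomyopathy, was at 16.6, 18.5 and 18.5 CPM against 21.7 and 22.6 CPM, 1.24-fold lower with an edgeR adjusted p of 0.0286. It passed with all 5 libraries but lost the call in each of the 4 fits that left out HFHS heart 1, HFHS heart 2 or either chow heart, and with DESeq2 and both offsets.

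By contrast, Mrps14 and Mrps16 kept their calls in every alternative tried. Mrps14, linked to perinatal cardiomyopathy, was at 31.0, 30.7 and 30.5 CPM in HFHS hearts, against 48.6 and 43.6 CPM in chow hearts. It was just under 1.5-fold lower, with an edgeR adjusted p of 0.000125. Mrps16, linked to fatal lactic acidosis in infants, was at 17.0, 16.8 and 19.1 CPM against 28.5 and 34.1 CPM, 1.77-fold lower with an edgeR adjusted p of 4.73e-05. Mrpl58, a ribosome-bound enzyme that frees chains from stalled ribosomes, was at 27.4, 27.7 and 28.3 CPM against 39.5 and 35.1 CPM, 1.34-fold lower with an edgeR adjusted p of 0.00225. All HFHS values of these genes lie below both chow values.

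Fold changes of the family followed transcript length, as those of all genes did. Across the 78 genes the rank correlation of log2 fold change with the median length of the coding transcripts was 0.60, and across 14193 tested genes it was 0.38; the genes share the same 5 libraries. Coding transcripts of the family had a median length of 1052 bases, against 2124 bases for all tested genes. In 10 equal bins of tested genes by that length, 49 of the 78 genes fell into the 3 shortest bins. In the shortest, of up to 729.5 bases, the median log2 fold change of all 1420 genes was -0.24 and 34.6% of them fell. Of the family's 20 genes in that bin, Mrps36 among them, 19 fell, with a median of -0.73. In the second bin 12 of 16 fell with a median of -0.44, against 38.7% and -0.28 for all its genes. In the third 8 of 13 fell with a median of -0.25, against 32.5% and -0.24. Of the 29 genes in the 7 longer bins, 12 fell. Mrps16, Mrpl32, Mrps30 and Mrpl43 are among those 12, although their coding transcript length exceeds their exon length in the counts. Over all bins, 62 of the 78 genes lay below the median of their own bin.

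**Figure D3:**
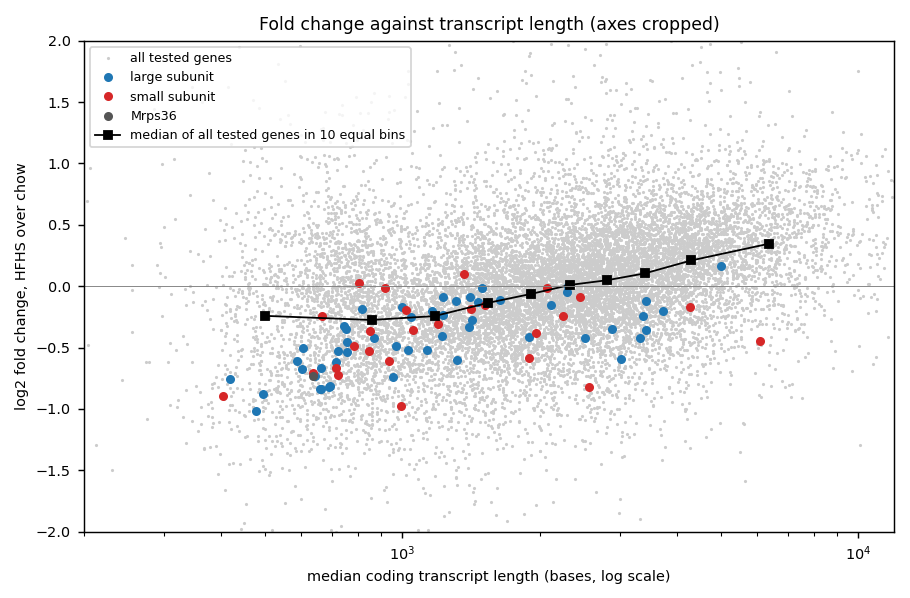
Log2 fold change, HFHS over chow (y axis), against the median length of a gene's coding transcripts in bases (x axis, log scale) for all tested genes (grey), large-subunit genes (blue), small-subunit genes (red) and Mrps36 (dark grey); black squares are medians of all tested genes in 10 equal bins. Most coloured points lie at short lengths and below the black line, and the line itself runs from -0.24 in the shortest to 0.35 in the longest bin.

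With offsets that take out each library's trend on length and GC content, fewer of these genes were called. With exon length in the trend 30 fell and 2 rose, with a median log2 fold change of -0.18, where 14.9% of all genes fell and 15.8% rose. With coding transcript length in the trend, an alternative chosen after the data were seen, 39 fell and 1 rose, with a median of -0.27, where 15.0% fell and 17.8% rose. Of the 51 genes that fell, 27 kept the call with exon length and 35 with coding transcript length. Mrpl33 had log2 fold changes of -1.18 and -0.73 in the 2 fits, Mrps24 -0.64 and -0.72, Mrps21 -0.48 and -0.61, and Mrpl42 -0.39 and -0.57, all past the threshold. Mrps27, a small-subunit protein with RNA-binding repeats, rose in both, by 0.39 and 0.28 on the log2 scale, with edgeR adjusted p of 0.0063 and 0.0379. Without offsets it was at 33.1, 34.4 and 29.4 CPM in HFHS hearts, against 32 and 28.3 CPM in chow hearts, and did not pass. Its exons overlap those of 6430562O15Rik. Mrpl16, of the large subunit, rose only with exon length, by 0.24. Exon length counts every annotated exon and can far exceed a transcript, as in Mrpl33 with 7326 against 478 bases. For Mrps16 the annotated coding transcript of 2572 bases is longer than the 566 bases of exon in the counts. The same holds for Mrpl32 (3013 against 768 bases) and Mrps30 (3319 against 1590 bases), and by less for Mrpl16, Mrpl43 and Mrpl57. Coding transcript offsets for these genes thus rest on lengths that the counts do not cover.

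In all, 22 genes fell in each of the 15 fits, which were the fit above and its 14 alternatives. From the large subunit these were Mrpl11, Mrpl12, Mrpl13, Mrpl15, Mrpl20, Mrpl21, Mrpl23, Mrpl30, Mrpl33, Mrpl42, Mrpl51 and Mrpl58. From the small subunit they were Mrps12, Mrps14, Mrps15, Mrps16, Mrps18c, Mrps21, Mrps24, Mrps25 and Mrps33, with Mrps36 beside them. The same count over all tested genes is not given here. Whether the family kept its calls more often than genes at large was not tested. Mrps12, whose product helps to check codons in the decoding centre, was at 10.1, 11.1 and 10.9 CPM in HFHS hearts, against 17.6 and 17.7 CPM in chow hearts, 1.65-fold lower. Mrps25 is unlike the others in having coding transcripts of 6073 bases in the median. It was at 23.8, 22 and 25 CPM against 32.9 and 31.4 CPM, 1.36-fold lower with an edgeR adjusted p of 0.00206, although the median of all genes in its length bin was 0.35. Its exons overlap those of Nr2c2.

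Levels per length differed widely within the family. On a scale of TPM, which sums to the same total in each library, with counts divided by the median coding transcript length, the median gene was at 33.4, 32.3 and 32.9 TPM in HFHS hearts and 42.9 and 41.9 TPM in chow hearts. Mrpl42 had the highest level, averaging 357.1 TPM in HFHS hearts and 639.7 TPM in chow hearts. In HFHS hearts Mrps23 (189.2 TPM), Mrpl30 (175.3 TPM) and Mrps21 (157.8 TPM) came next, and in chow hearts Mrpl30 (313.5 TPM), Mrps21 (293.6 TPM) and Mrps23 (223.4 TPM). Mrpl53 had the lowest, with 1.63 and 2.90 TPM, from 10 to 17 counts per HFHS library and 26 to 33 per chow library. Its log2 fold change of -0.82 did not pass (edgeR adjusted p 0.0942). The rank correlation of mean TPM with log2 fold change was -0.28 over the 78 genes; transcript length enters both measures.

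Proteins of the same ribosome that carry other symbols were mostly lower as well. Of 5 such genes, 3 fell and 1 rose, where 18.7% of all tested genes fell and 19.4% rose. Chchd1, of the small subunit, was at 33.7, 34 and 38.5 CPM in HFHS hearts, against 71.5 and 77.2 CPM in chow hearts, 2.10-fold lower with an edgeR adjusted p of 6.04e-07. Aurkaip1, also of the small subunit, fell 1.7-fold, and Gadd45gip1, of the large subunit, fell 1.34-fold, a call lost with exon length offsets. Ptcd3, an RNA-binding protein of the small subunit, was at 136.8, 134.2 and 130.8 CPM against 111.7 and 113.2 CPM, 1.19-fold higher with an edgeR adjusted p of 0.0119. That call was lost without HFHS heart 1, without HFHS heart 2 and with exon length offsets. Dap3, a GTP-binding protein of the small subunit, did not pass (adjusted p 0.0547). With exon length offsets Dap3 fell (log2 fold change -0.35, edgeR adjusted p 0.00214).

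Of 34 mitochondrial translation factors and tRNA synthetases, 9 rose, none fell and 25 did not pass, with a median log2 fold change of 0.10. Of all tested genes 19.4% rose and 18.7% fell, so the count of higher calls is not far from that of genes at large. DESeq2 also called 0 lower and limma-voom 1, and at an unadjusted p of 0.05 the edgeR fit had 1 lower. Taco1, which activates translation of a cytochrome oxidase subunit, was at 38.3, 37.8 and 36.0 CPM in HFHS hearts, against 23.1 and 19.9 CPM in chow hearts, 1.74-fold higher. Gfm2, which recycles ribosomes, rose 1.65-fold, Gfm1, the elongation factor that moves the ribosome along, rose 1.42-fold, and Iars2, which charges isoleucine tRNA, rose 1.36-fold. Their edgeR adjusted p were 2.61e-05, 1.79e-05, 0.000115 and 0.000332. Tufm, the elongation factor that brings tRNAs, was at 125.0, 141.6 and 139.5 CPM against 133.7 and 127.2 CPM and did not pass (adjusted p 0.628). With exon and coding transcript length offsets Tufm rose, by 0.28 and 0.27 on the log2 scale (edgeR adjusted p 0.00998 and 0.0117). Without HFHS heart 2 the list had 4 genes higher. The median coding transcript length of the list was 1924 bases. It had 9 higher and 2 lower with exon length offsets and 10 higher and 0 lower with coding transcript length offsets.

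Of 29 tested assembly factors and enzymes that modify ribosomal RNA, 3 rose and 3 fell, smaller shares than the 19.4% and 18.7% of all tested genes, and their median was -0.02. Malsu1, a factor of large-subunit assembly, was at 8.18, 8.83 and 8.78 CPM in HFHS hearts, against 15.1 and 15.6 CPM in chow hearts, 1.79-fold lower with an edgeR adjusted p of 0.00011. Rbfa, which matures the small subunit, fell 1.33-fold, a call lost with both offsets. Afg3l2, a protease that cuts the Mrpl32 protein to its mature form, was at 168.5, 162.4 and 170.8 CPM against 121.5 and 110.9 CPM, 1.44-fold higher with an edgeR adjusted p of 8.75e-05. Mrpl32 itself was at 18.9, 21.4 and 19.5 CPM against 30.3 and 29.8 CPM, 1.51-fold lower. Trub2, which modifies mitochondrial RNA, rose 1.29-fold. Exon length offsets ended the calls of Mrpl32 and Trub2.

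Of 26 genes of mitochondrial transcription and RNA processing, 7 rose and 3 fell, where 19.4% of all tested genes rose and 18.7% fell. Lrpprc and Slirp encode partners in 1 complex that keeps mitochondrial messenger RNA stable. Lrpprc was at 246.9, 235.7 and 232.9 CPM in HFHS hearts, against 144.5 and 129.98 CPM in chow hearts, 1.74-fold higher with an edgeR adjusted p of 2.66e-06. Slirp was at 19.7, 20.7 and 22.8 CPM against 40.3 and 38.8 CPM, 1.87-fold lower with an edgeR adjusted p of 6.35e-06. Both calls held with either length offset, at 0.59 for Lrpprc in both fits and at -0.77 and -0.62 for Slirp. Hsd17b10, part of the enzyme that cuts mitochondrial tRNAs free, fell 1.43-fold, a call lost with exon length offsets, and the RNA-binding Grsf1 rose 1.24-fold. The mitochondrial RNA polymerase Polrmt (adjusted p 0.0581) and the DNA-packaging factor Tfam (0.273) did not pass. Without HFHS heart 2 the list had 4 genes higher, and without chow heart 2 it had 3.

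**Figure D4:**
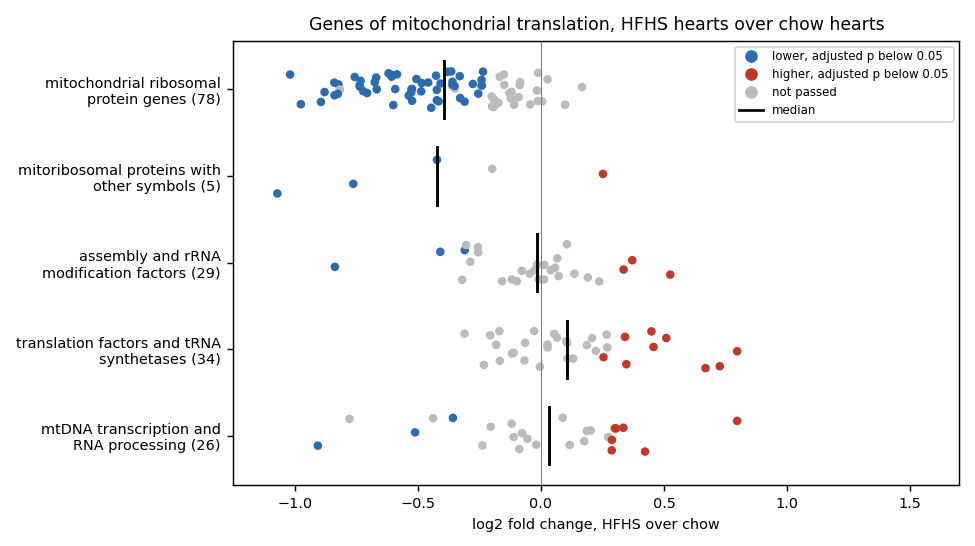
Log2 fold change, HFHS over chow (x axis), of each tested gene in the mitoribosomal family and in 4 lists of related genes (rows); blue points were lower and red points higher at an adjusted p of 0.05, grey points did not pass, and black lines are medians. The medians are -0.39 for the 78 genes and -0.42 for the 5 mitoribosomal genes with other symbols, and -0.02, 0.10 and 0.03 for the other 3 lists.

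Of 10 transcription factors and coactivators listed as possible regulators, 5 rose and 5 did not pass, where 19.4% of all tested genes rose. Whether each acts on the promoters of this family was not tested. The coactivator Ppargc1b was at 16.1, 14.1 and 19.5 CPM in HFHS hearts, against 5.09 and 5.28 CPM in chow hearts, 3.20-fold higher. Ppargc1a rose 1.42-fold, with 58.1 and 80.6 CPM in the chow hearts far apart, and Pprc1 rose 1.35-fold. Gabpa rose 1.18-fold, while Nrf1 (adjusted p 0.570), Yy1 (0.634), Esrra (0.795) and Myc (0.419) did not pass. Without the offsets Gabpb2 also rose; neither Gabpa nor Gabpb2 passed in either offset fit, and Pprc1 did not with exon length. Nrf1 and Gabpb1 fell with exon length offsets (log2 fold changes of -0.41 and -0.38) and Yy1 with coding transcript length offsets (-0.27). Esrra rose with coding transcript length offsets (0.30, edgeR adjusted p 0.0087). Neither Yy1 nor Esrra passed with exon length offsets (edgeR adjusted p 0.0975 and 0.100). The coding transcript length of Yy1, 6178 bases, exceeds its 2902 bases of exon in the counts. For Esrra these lengths are 727 and 2539 bases.

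Many of these genes share a start region with a neighbour on the other strand. Such a head-to-head start within 1000 bases was found for 19 of the 78 genes, 17 of them with a protein-coding neighbour, of which 16 were tested. Among those neighbours 2 fell, 1 rose and 13 did not pass, where 18.7% of all tested genes fell and 19.4% rose. Of the 8 pairs in which the mitoribosomal gene fell, the neighbour fell in 1, rose in 1 and did not pass in 6. Mrpl32 fell together with Psma2, a proteasome subunit gene whose start lies 205 bases away, at 67.6 ± 3.24 CPM in HFHS hearts, against 90.5 ± 2.62 CPM in chow hearts (SD, n = 3 and 2). Mrpl51 was 1.28-fold lower, while its neighbour Ncapd2, a condensin subunit gene, was 1.41-fold higher, at 18.1 ± 0.486 CPM against 12.9 ± 0.774 CPM. Mrps12 and Sars2, the mitochondrial serine tRNA synthetase gene 172 bases away, had log2 fold changes of -0.72 and 0.27, and Sars2 did not pass (adjusted p 0.300). Mrpl43 was 1.26-fold lower, a call lost with both offsets, while its neighbour Twnk, the mitochondrial DNA helicase, was at 30.2 ± 2.20 CPM against 26.3 ± 4.2 CPM and did not pass. Fau, which encodes a cytosolic ribosomal protein, was 2.5-fold lower, while its neighbour Mrpl49 did not pass (adjusted p 0.298). Whether partners differ was not tested.

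**Figure D5:**
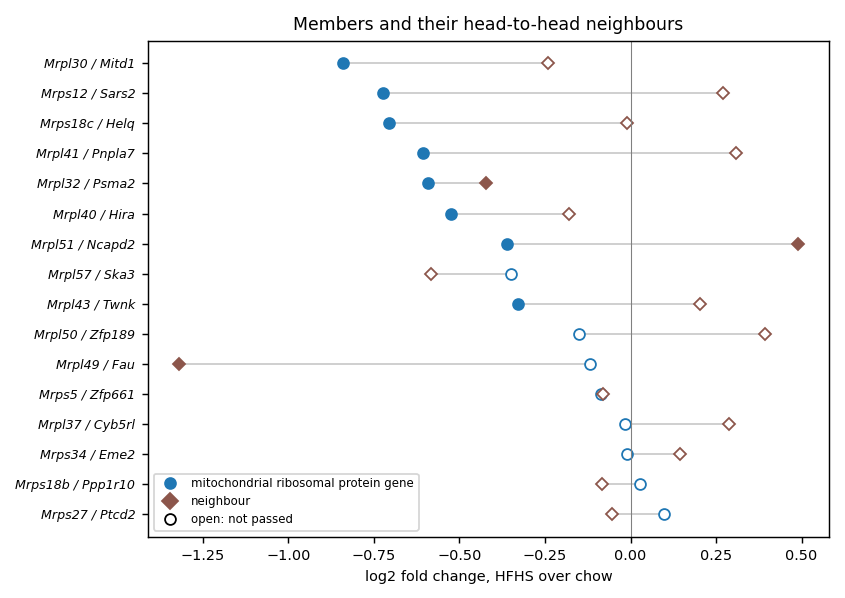
Log2 fold change, HFHS over chow (x axis), of 16 mitoribosomal protein genes (circles) and of the protein-coding gene that starts head to head with each (diamonds); filled symbols passed an adjusted p of 0.05. Circles are filled in 8 rows, and diamonds in 3, those of Psma2, Ncapd2 and Fau.

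Cytosolic ribosomal protein genes and nuclear genes of oxidative phosphorylation had lower medians in the same comparison. Of 90 tested cytosolic ribosomal protein genes 80 fell and 3 rose, with a median log2 fold change of -1.04. Of 82 oxidative phosphorylation genes 70 fell and 2 rose, with a median of -0.68. Among all tested genes 18.7% fell and 19.4% rose. Their median coding transcript lengths were 733 and 670 bases, and with coding transcript length offsets their medians were -0.80 and -0.42, against -0.27 for the mitoribosomal genes. The differences between these families were not tested.

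The hearts held between 14362766 and 17774735 counts, and the family's median count was 414 to 487 in HFHS libraries and 703 to 736 in chow libraries. All 8 heart muscle cell markers were present. Their sum was 61840 to 64543 CPM of total counts in HFHS hearts and 62498 to 67827 CPM in chow hearts. Of them 4 fell and 2 rose, so the near-equal sums join opposite moves. With TMM factors, Myh6 rose from 11643 and 14951 CPM in chow hearts to 24371, 24619 and 21091 CPM in HFHS hearts. Mb fell from 13256 and 12300 CPM to 8601, 8708 and 9471 CPM. Markers of most other cell types were lower in the same HFHS hearts, where 18.7% of all tested genes fell and 19.4% rose. All 6 fibroblast markers fell (764 to 830 CPM against 1191 to 1313 CPM), as did 4 of 6 endothelial (1133 to 1154 against 1878 to 2083), 6 of 6 macrophage (138 to 165 against 380 to 449) and 5 of 5 red blood cell markers (250 to 524 against 1484 to 1699). Of 5 lymphocyte markers 1 was tested and fell (1.11 to 1.63 against 1.67 to 4.05), and of 4 fat markers 1 was tested and did not pass (22.1 to 25.6 against 21.9 to 23). No marker was at 0 in all libraries. In such bulk samples fewer cells of a type and less RNA per cell cannot be told apart, and the part of these shifts in the mitoribosomal result was not tested.

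Exons of 31 of the 78 genes overlap exons of another gene, and the strand setting of the counting is not given, so their reads may be shared. They include Mrpl3, Mrpl10, Mrpl12, Mrpl33, Mrpl44, Mrpl58, Mrps18b, Mrps18c and Mrps30. Among the 47 genes with no such overlap 31 fell and none rose. The 5 annotated processed pseudogenes of the family had 0 to 5 counts per library. The 78 genes lie on 17 chromosomes, none of them X or Y.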

How the data were processed

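The data are 5 libraries of heart poly-A RNA, 3 HFHS and 2 chow, all from mice given iron. The values are raw counts per gene as deposited by the authors, 1 table per library, with exon length and GRCm38 exon coordinates per the file headers. The submitters' processing notes name STAR 2.5.2b, Trimmomatic 0.36, Subread 1.5.2 and featureCounts; no source used here gives their options, strand setting or annotation release. Symbols came from GENCODE M21, in which 49056 of 49315 genes were found. Mitochondrial ribosomal RNA genes are not analysed here.

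The test was the quasi-likelihood test of edgeR 4.0.16, run under R 4.3.3 (filter by filterByExpr, TMM scaling, diet as the only term, Benjamini-Hochberg over all tested genes). Fold changes are HFHS over chow; standard errors are approximate, from the F statistic. Alternatives were DESeq2 1.42.0, limma-voom (limma 3.58.1), other size factors and filters, offsets for length and GC (mgcv 1.9.3), the replicate number as a block, and leaving out each library. Named genes were the 8 with the smallest p that fell, the 3 of highest TPM, and fixed disease-linked, role or placement genes; from related lists, those of smallest p and a fixed set. Genes of interest for their length, stability, neighbours or offsets, and Mrpl10, were added after their values were seen. The members and lists were chosen with earlier results of these data known.

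A count of 0 allows up to 0.169 to 0.209 CPM (3 counts), for counting error only. No pair of libraries was as close as sampling noise (chi-square per degree of freedom of at least 2.75). Deviations of same-numbered libraries correlated by 0.035 and 0.026. These values gave no sign that the numbers pair libraries, but with so few libraries they cannot decide the question. The scripts were tested on simulated data.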

Additional observations from a re-analysis of the deposited data

How the results depend on the processing

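None of the 78 genes was called higher, and 46 to 52 were called lower, with other size factors, DESeq2, limma-voom, other filters, without mitochondrially encoded genes and with the replicate number as a block. Leaving out each library gave 42 to 52 lower and medians of -0.43 to -0.38; 40 genes fell in all 5 of these fits. The matching count over all tested genes is not given here. With the replicate block the median was -0.43. Over genes without exon overlap 31 fell, of the 47 that remain, with a median of -0.36. With exon length and GC offsets 30 fell and 2 rose (median -0.18), no mitoribosomal gene with another symbol rose, 2 translation factors or synthetases fell and 1 transcription or RNA processing gene fell. With coding transcript length and GC offsets the median was -0.27, 1 of the 78 rose, and 1 assembly factor fell and 5 rose. Leaving out Mrps36 and adding the genes with other symbols gave 1 higher. Limma-voom, no low-count filter and the block each called 1 translation factor or synthetase lower. Without each library in turn, 0 to 1 translation factors or synthetases were lower and 4 to 8 higher, 3 to 8 transcription and RNA processing genes were higher, and 0 to 1 mitoribosomal genes with another symbol were higher.

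Of the 78 genes, 60 and 62 were below 0 with the exon and coding transcript offsets, against 74 without. Mrpl28, Mrpl43, Mrpl44 and Mrps23, called lower without offsets, had log2 fold changes of 0.12, 0.055, 0.033 and 0.085 with exon length offsets and none passed; with coding transcript offsets Mrps23 had 0.0085. Mrpl3 had -0.0032 without a filter, -0.15 and -0.00031 with the exon and coding transcript offsets, -0.042 with the block and -0.037 to 0.054 without each library. Mrps34 had 0.21 and 0.25 with the 2 offsets and -0.081 to 0.026 without each library and Mrps18b -0.14 to 0.22 without each library. The cause was not tested. With 2 chow libraries, leaving 1 out assumes that the other varies like the HFHS ones. Low counts limit Mrpl53.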
